A study of Mus musculus with 6 samples.

Results

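The genes described here are 10 transcription factors of mesenchymal transition, taken by symbol from a count table of 25140 genes: *Snai1*, *Snai2*, *Zeb1*, *Zeb2*, *Twist1*, *Twist2*, *Prrx1*, *Runx1*, *Runx2* and *Sox9*. All 10 were found once in the table, and all 10 passed the filter on low counts. The cells were primary fibroblasts of the adult heart from C57BL/6 mice, at passage 1, and they were compared with and without TGFβ, the cytokine that drives fibroblasts toward contractile, matrix-secreting myofibroblasts. Cells were grown in 10% FBS and 25 mM glucose and then held in 1% FBS. The 3 TGFβ libraries came from cells given 10 ng/ml TGFβ for 24 h, and the 3 vehicle libraries came from cells held in the same low serum. The sample labels put the time in low serum before treatment at 16 h, while the study's methods give 24 h, and its results call the same cells MEFs. No genotype or second agent distinguished the groups, and what the vehicle consisted of was not given in the sources used here. The study speaks of biological replicates but does not say whether each was a separate animal or isolation. The edgeR p-values therefore set the group difference against the spread between these libraries, estimated with information from all genes.

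Epithelial-mesenchymal transition is the change by which cells lose their junctions and polarity and become migratory and matrix-producing. SNAIL, ZEB and TWIST proteins are its classical drivers: the SNAIL and ZEB zinc fingers bind E-boxes, short CANNTG motifs, and repress E-cadherin, while TWIST proteins bind similar motifs as basic helix-loop-helix dimers. PRRX1 is a paired-type homeodomain protein of embryonic limb and connective tissue mesenchyme, RUNX1 and RUNX2 are runt-domain proteins best known in blood and bone formation, and SOX9 is the HMG-box regulator of cartilage. In fibroblasts, which are mesenchymal already, these genes belong to the standing regulatory program, and TGFβ is known to induce several of them in epithelial cells.

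The libraries held 27851677 to 31072338 counted reads. Libraries are numbered 1 to 3 within each group by the order of their columns, and the headers do not say whether these numbers pair vehicle with TGFβ. Across the 14334 genes tested, the deviations of log2 CPM from the group mean correlated at r = 0.372 to 0.445 between vehicle and TGFβ libraries of the same number and at r = -0.26 to -0.125 between those of different numbers, where genes are not independent replicates. Deviations from a group mean cancel within the group, so the positive values largely force the negative ones, which are no separate observation. Library 1 stood apart in mesothelial genes in both groups, as in *Lrrn4* with 685, 49 and 174 reads with vehicle and 202, 36 and 58 with TGFβ. Of 10 genes known to rise with TGFβ, 8 rose, among them *Ltbp2*, a latent TGFβ binding protein, by a log2 fold change (log2FC, TGFβ over vehicle, given below with its standard error, SE) of 3.12. All 10 fibroblast markers were present, led by *Col1a1* at 19990 ± 1515 CPM with vehicle (SD, n = 3; CPM are reads per 1000000 of the scaled library), and 8 of them were lower with TGFβ and none higher. Other cell types left traces. The 8 endothelial markers summed to 461.8 to 716 CPM with vehicle and 423 to 586 CPM with TGFβ, led by *Cdh5*, and the 8 leukocyte markers, of which 7 were listed, summed to 248 to 358 CPM and 213 to 318 CPM, led by *Lyz2*. None of the endothelial markers was called, and 1 of the leukocyte markers, *Cd14*, was called lower with TGFβ. Both sums overlapped between groups, but each was lower with TGFβ than with vehicle in libraries of the same number. Equal levels of these cells in the groups are therefore not shown. *Myh7* and *Cd3e* were not listed. Summed smooth muscle and pericyte markers lay at 359.5 to 389 CPM with vehicle and 245 to 308 CPM with TGFβ, where *Notch3* was called lower (log2FC -1.85) and *Cspg4* and *Smtn* higher (log2FC 1.45 and 0.29). Epicardial and mesothelial markers summed to 317 to 355 CPM and 255 to 306 CPM, where *Aldh1a2* was called lower (log2FC -0.46) and *Tbx18* higher (log2FC 0.55). The sums of bone and cartilage markers were 9.79 to 14.8 CPM and 56.5 to 70.5 CPM, led by *Acan*. None of these 3 sums overlapped between groups, but single genes weighed heavily in each. *Notch3* alone went from 206.6 ± 16.7 to 57.3 ± 7.58 CPM and *Aldh1a2* from 226.6 ± 18.9 to 164.7 ± 5.5 CPM (SD, n = 3 each). The sums without these genes were not compared, so they do not speak for the other markers of their lists. In the bone and cartilage sum, *Acan* and *Col2a1* made up nearly all, and *Sp7*, *Bglap*, *Ibsp* and *Matn1* had at most 1 read in any library. Cardiomyocyte markers, led by *Tnnt2*, summed to 38.6 to 59.5 CPM and 27.3 to 40.3 CPM, and epithelial markers, led by *Krt18*, to 0.371 to 1.13 CPM and 0.609 to 2.52 CPM. In both groups library 3 had the highest summed endothelial and leukocyte levels, and the part of these cells in the results was not tested. In such bulk libraries, fewer cells of a type and less RNA per cell cannot be told apart.

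TGFβ split the 10 factors into 3 that rose, 4 that fell and 3 that missed the threshold. *Runx1*, *Runx2* and *Sox9* rose by 40.8% to 51.9%, and *Snai2*, *Zeb2*, *Twist2* and *Prrx1* fell to between 0.575 and 0.653 of the vehicle level. *Snai1*, *Zeb1* and *Twist1* did not pass an adjusted p of 0.05. The count of 7 called among 10 stands beside 40.7% of the 14334 genes tested, of which 20.5% were called higher and 20.1% lower. In 8 of the 10 factors every TGFβ library was on the same side of every vehicle library, which was so in 53.3% of genes tested. The changes were moderate. None of the factors passed a log2 fold change of 1 in either direction, as 1022 genes tested did, and their median absolute log2 fold change was 0.57 beside 0.21 for all genes. Calls are from edgeR's quasi-likelihood test, adjusted over all genes tested. The members and lists were chosen with earlier results of these data known, so their share of calls is a description.

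**Figure D1:**
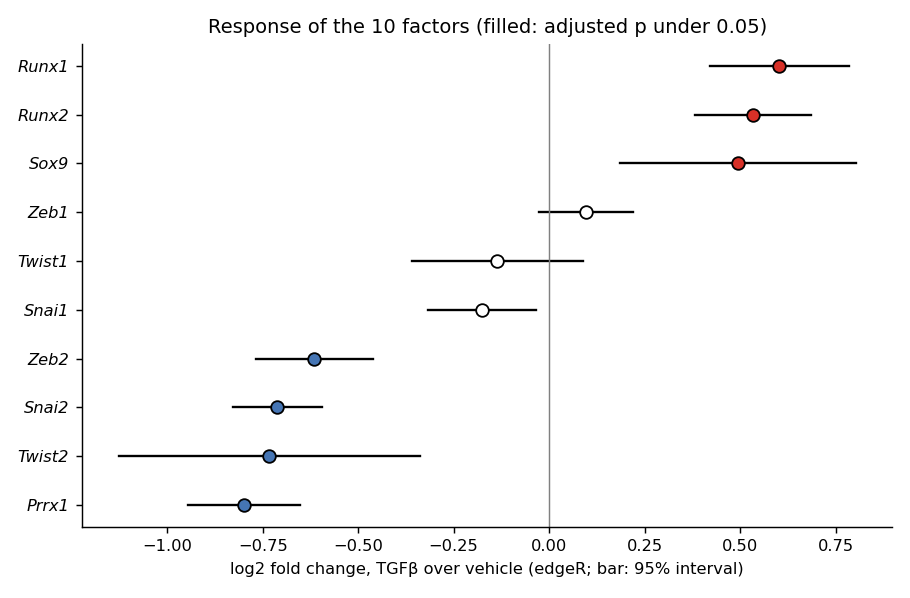
Log2 fold change of each factor with TGFβ over vehicle (x axis) with its 95% interval from edgeR's fit (bars), ordered by size, for 3 libraries a group. Filled points passed an adjusted p of 0.05: *Runx1*, *Runx2* and *Sox9* lie between 0.49 and 0.60, and *Zeb2*, *Snai2*, *Twist2* and *Prrx1* between -0.62 and -0.80, while *Zeb1*, *Twist1* and *Snai1* (open) lie nearer to 0.

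*Snai1* encodes SNAIL, the zinc finger repressor that starts many transitions, and maps to chr2:167538195-167542814 (plus strand; GRCm38, GENCODE M21). Its promoter is shown because it carries an E-box of the kind that SNAIL proteins themselves bind. The sequence is RefSeq's for GRCm38.p6, 250 bases up to the start on the plus strand, chr2:167537945-167538194, and the capitals mark CACCTG, the E-box form that SNAIL and ZEB proteins prefer.
*Snai1* promoter: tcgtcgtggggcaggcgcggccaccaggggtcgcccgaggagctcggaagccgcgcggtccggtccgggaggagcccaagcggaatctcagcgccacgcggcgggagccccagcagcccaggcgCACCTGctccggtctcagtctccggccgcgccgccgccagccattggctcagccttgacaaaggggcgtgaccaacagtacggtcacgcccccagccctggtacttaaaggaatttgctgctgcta
Among 32851 RefSeq promoter windows of 300 bases (250 before and 50 after a start), 72.3% held CANNTG on either strand and 20.2% held CACCTG, which is one form of CANNTG. Of the 11 windows available for 7 of the factors, 3 held CANNTG and 2 held CACCTG. By factor, 3 of the 7 had a window with CANNTG and 2 had one with CACCTG. Some windows belong to the same factor and overlap, so these few windows were not compared with the shares of all windows. The window of *Snai1* held 34 CpG dinucleotides, more than 92.3% of all windows.

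*Snai1* gave 2744, 2607 and 2487 reads with vehicle, or 86.2, 87.9 and 83.4 CPM, and 2058, 1957 and 2350 reads with TGFβ, or 75.2, 70.1 and 82.4 CPM. All TGFβ libraries were below all vehicle libraries, but library 3 with TGFβ missed the lowest vehicle library by little. Its log2FC was -0.18 with an SE of 0.06 (95% interval -0.32 to -0.04), and the adjusted p of 0.0504 from edgeR missed the threshold. Over 12 alternatives its adjusted p ran from 0.00743 to 0.147 and passed in 5, so the call for *Snai1* rests on the processing. With the column order as a block, an alternative chosen after seeing the data, its edgeR adjusted p was 0.0122.

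*Snai2* encodes SLUG, the SNAIL paralogue of neural crest and mesenchyme (plus strand, chr16:14705852-14709385). It was counted at 35.9, 38.1 and 36.7 CPM with vehicle and at 22.0, 23.6 and 22.0 CPM with TGFβ. The groups lay far apart beside their spread, an SD of 1.10 CPM for vehicle and of 0.925 CPM for TGFβ (n = 3 each). *Snai2* fell by 38.9%, with a log2FC of -0.71 and an SE of 0.05 (edgeR adjusted p = 4.69e-05).

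*Zeb1* encodes a zinc finger and homeodomain repressor of epithelial genes (plus strand, chr18:5591860-5775467). Its level was 96.9, 105.03 and 102 CPM with vehicle and 109.7, 113 and 102 CPM with TGFβ, and the groups overlapped through library 3 with TGFβ. Each TGFβ library was above the vehicle library of the same number, by little for library 3. Its log2FC was 0.10 with an SE of 0.05 (edgeR adjusted p = 0.181), with a 95% interval from -0.03 to 0.22, whose upper end is under the rise of *Runx1* described below.

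*Zeb2* encodes the paralogous repressor also known as SIP1, named for its binding to SMAD proteins (minus strand, chr2:44983632-45117395). It was counted at 179, 202 and 213 CPM with vehicle and at 124, 132 and 131 CPM with TGFβ. Each TGFβ library was below each vehicle library, and the vehicle libraries were the more scattered. *Zeb2* fell by 34.7%, with a log2FC of -0.62 and an SE of 0.07 (edgeR adjusted p = 0.000317). Whether reads were counted by strand was not given in the sources used here, so reads of a gene and of an antisense partner over shared exon bases cannot be told apart. The antisense transcript *Zeb2os*, which shares 653 exon bases with *Zeb2*, held 2.12% as many reads and was not called (log2FC -0.29, edgeR adjusted p = 0.113).

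*Twist1* encodes a basic helix-loop-helix factor of cranial and limb mesenchyme (plus strand, chr12:33957671-33959829). It was counted at 23.8, 19.0 and 21.5 CPM with vehicle and at 20.3, 17.7 and 20.6 CPM with TGFβ, and the groups overlapped, with each TGFβ library below the vehicle library of the same number. Its log2FC was -0.14 with an SE of 0.10 (95% interval -0.36 to 0.09, edgeR adjusted p = 0.304).

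*Twist2*, also known as *Dermo1*, encodes its paralogue of dermal and connective tissue mesenchyme (plus strand, chr1:91801461-91848028). It was counted at 17.4, 16.05 and 18.9 CPM with vehicle and at 9.32, 8.42 and 13.7 CPM with TGFβ. Library 3 with TGFβ was well above the other two, yet all 3 stayed below vehicle. *Twist2* fell by 39.8%, with a log2FC of -0.73 and an SE of 0.17 (edgeR adjusted p = 0.0108). Its coefficient of variation with TGFβ was 27.0%, beside a median of 6.63% for all genes tested and about 6.52% from counting alone. The adjusted p reached 0.0482 at the weakest of the 12 alternatives. An antisense gene, *Gm29100*, shares 1477 exon bases with *Twist2* and held 3.03% as many reads.

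*Prrx1*, the homeodomain factor of mesenchyme, lies on the minus strand (chr1:163245119-163313710). Its upstream sequence is shown because it holds TAATTA, the core that paired-type homeodomains recognize, as 5.29% of all windows do. The RefSeq stretch runs on the minus strand over chr1:163313711-163313900 (GRCm38.p6) and ends where the annotated first exon begins. The capitals mark TAATTA.
*Prrx1* promoter: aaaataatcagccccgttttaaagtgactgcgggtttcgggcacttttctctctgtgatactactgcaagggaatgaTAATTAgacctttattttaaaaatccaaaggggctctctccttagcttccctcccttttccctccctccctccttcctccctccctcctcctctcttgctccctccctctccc
With 6 CpG dinucleotides in its window of 300 bases, the *Prrx1* promoter was much poorer in CpG than that of *Snai1*, near the median of 7 for all windows. A match of letters is a description and not a bound site.

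*Prrx1* was counted at 254, 273 and 295 CPM with vehicle and at 151, 165 and 157 CPM with TGFβ. The highest TGFβ library stood far below the lowest vehicle library. *Prrx1* fell by 42.5%, with a log2FC of -0.80 and an SE of 0.06 (95% interval -0.95 to -0.65, edgeR adjusted p = 7.49e-05). This was the largest change among the 10 factors in the fit reported here, and 23.4% of all called genes changed by more. In reads per gene, before any division by length, *Prrx1* was also the most counted factor, with 8084 to 8802 reads with vehicle and 4121 to 4601 with TGFβ.

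**Figure D2:**
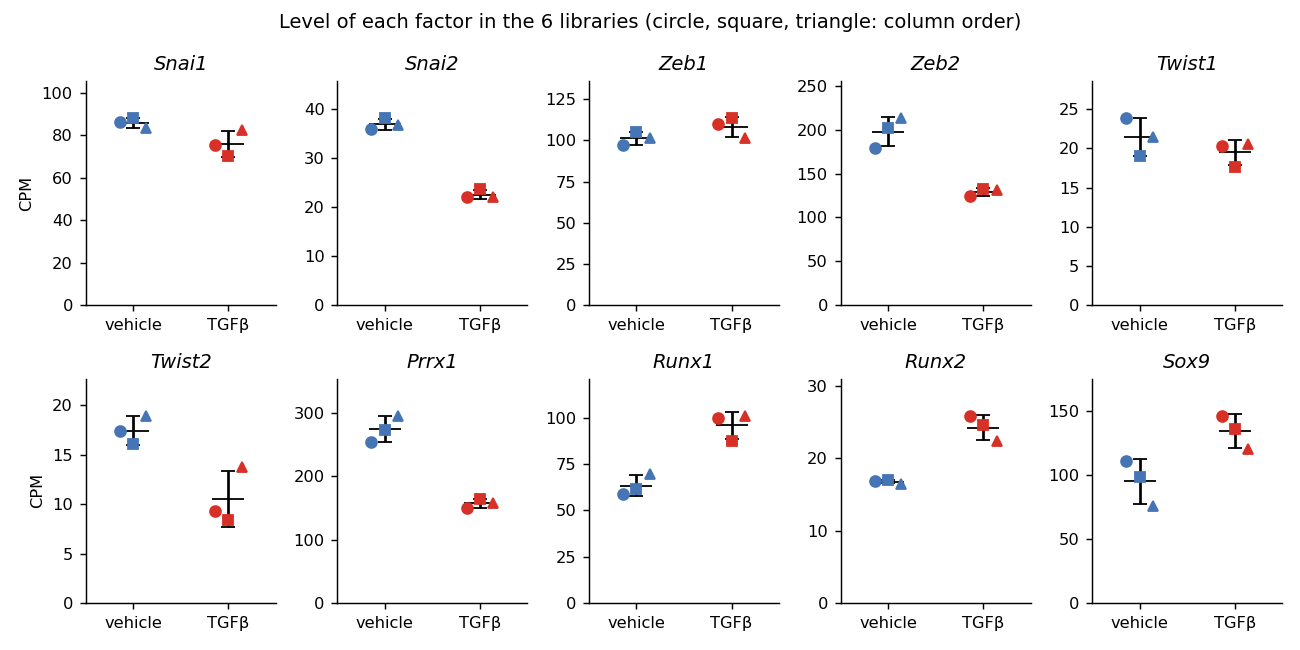
CPM of each factor (y axis, from 0, each panel with its own scale) in the 3 vehicle and 3 TGFβ libraries, with circles, squares and triangles for libraries 1, 2 and 3 and a black bar for the mean ± SD. The groups are apart in 8 panels and overlap in *Zeb1* and *Twist1*; *Twist2* library 3 with TGFβ sits at 13.7 CPM and *Sox9* library 3 with vehicle at 76.3 CPM, away from their groups.

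*Runx1* encodes the runt-domain factor of blood stem cells (minus strand, chr16:92601466-92826149). It has a pair of known promoters, and both are shown because their sequences differ sharply while the counts, made per gene, cannot tell the transcripts apart. Both stretches are RefSeq's on the minus strand of GRCm38.p6, the distal one at chr16:92826150-92826324 and the proximal one at chr16:92697330-92697579. The capitals mark CANNTG, here as CAACTG and CAGGTG, the latter being CACCTG on the other strand.
*Runx1* distal promoter: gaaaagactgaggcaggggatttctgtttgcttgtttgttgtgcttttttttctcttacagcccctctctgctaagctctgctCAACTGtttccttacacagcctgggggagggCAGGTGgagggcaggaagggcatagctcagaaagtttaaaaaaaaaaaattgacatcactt
*Runx1* proximal promoter: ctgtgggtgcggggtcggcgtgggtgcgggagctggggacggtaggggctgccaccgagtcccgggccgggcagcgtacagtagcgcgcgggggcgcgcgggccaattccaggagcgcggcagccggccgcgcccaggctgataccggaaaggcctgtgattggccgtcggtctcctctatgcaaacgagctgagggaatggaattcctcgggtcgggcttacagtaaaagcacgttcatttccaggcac
The full distal window held 2 CpG dinucleotides and 2 copies of TGTGGT, the RUNX motif, which 16.8% of all windows held on either strand. The proximal window held 35 CpG dinucleotides and no match to CANNTG or TGTGGT. The single *Runx2* window held 2 CpG dinucleotides and 3 copies of TGTGGT, so in these measures it was closer to the distal promoter of *Runx1*.

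*Runx1* was counted at 58.6, 61.5 and 69.7 CPM with vehicle and at 99.7, 87.7 and 101 CPM with TGFβ. All TGFβ libraries were above all vehicle libraries. *Runx1* rose by 51.9%, with a log2FC of 0.60 and an SE of 0.08 (95% interval 0.42 to 0.79, edgeR adjusted p = 0.00078). *Runx1* is also expressed in leukocytes, whose summed markers were 248 to 358 CPM with vehicle and 213 to 318 CPM with TGFβ, and their part in this result was not tested.

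*Runx2* encodes the master regulator of osteoblasts (minus strand, chr17:44495987-44814797). It was counted at 16.8, 17.0 and 16.5 CPM with vehicle and at 25.8, 24.6 and 22.3 CPM with TGFβ. The vehicle libraries were nearly identical, and each TGFβ library was above them. Their coefficient of variation with vehicle, 1.45%, was below the 4.51% or so from counting alone, so it is no measure of how steady the level was. *Runx2* rose by 44.7%, with a log2FC of 0.53 and an SE of 0.07 (95% interval 0.38 to 0.68, edgeR adjusted p = 0.00058). On the opposite strand, *Supt3* overlaps the span of *Runx2* without sharing an exon base and held 58.2% as many reads, but its level was 12.3 ± 1.87 CPM in vehicle and 11.3 ± 0.298 CPM in TGFβ libraries (SD, n = 3 each; edgeR adjusted p = 0.437). The antisense gene *Runx2os1* shares 519 exon bases and held 4.21% as many reads, with a log2FC of 0.51 (edgeR adjusted p = 0.0771).

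*Sox9* (plus strand, chr11:112782224-112787760) was the most variable factor with vehicle. It was counted at 111, 98.7 and 76.3 CPM with vehicle and at 146, 137 and 120.1 CPM with TGFβ. The groups did not overlap, but library 1 with vehicle and library 3 with TGFβ came close to each other. *Sox9* rose by 40.8%, with a log2FC of 0.49 and an SE of 0.13 (95% interval 0.18 to 0.80, edgeR adjusted p = 0.0201). The call was lost without TGFβ library 1 (edgeR adjusted p = 0.0727) or TGFβ library 2 (edgeR adjusted p = 0.0559), in a range of 0.000926 to 0.0727 over 12 alternatives. In both groups *Sox9* was lowest in library 3, where the summed endothelial markers were highest.

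Where the groups did not overlap, an exact two-sided permutation test on CPM gave p = 0.1 for each factor, the smallest that 3 libraries against 3 allow, and it gave p = 0.2 for *Zeb1* and p = 0.4 for *Twist1*. Over the 75-base windows of each factor's longest transcript, no window occurred in another gene's transcripts for 9 factors, and 0.25% did for *Runx2*.

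The SNAIL, ZEB and TWIST families each consist of a pair among the 10 factors. In each pair the second member, *Snai2*, *Zeb2* or *Twist2*, was called lower while the first was not called. Not called does not mean unchanged. *Snai1* was also lower in every TGFβ library than in every vehicle library (log2FC -0.18, edgeR adjusted p = 0.0504), and it was called in 5 of 12 alternatives. The balance within a pair was measured as the log2 ratio of the levels per kilobase of all exons within each library, which does not depend on library scaling. *Snai1* stood over *Snai2* by 2.99, 2.88 and 2.83 times with vehicle and by 4.27, 3.70 and 4.67 times with TGFβ. *Zeb1* to *Zeb2* stood at 1.05, 1.01 and 0.926 with vehicle and at 1.71, 1.67 and 1.51 with TGFβ. These ratios depend on the length used: per kilobase of the longest transcript they were 0.850, 0.820 and 0.750 with vehicle and 1.39, 1.35 and 1.22 with TGFβ. *Twist1* stood over *Twist2* by 2.67, 2.31 and 2.21 times with vehicle and by 4.24, 4.09 and 2.93 times with TGFβ. Per kilobase of the longest transcript the TWIST ratios were 2.13, 1.83 and 1.76 with vehicle and 3.38, 3.25 and 2.33 with TGFβ. In all 3 pairs the TGFβ ratios lay above every vehicle ratio. How often the ratios of other gene pairs do so was not computed, and the groups were apart in 53.3% of single genes tested. The levels of *Snai2*, *Zeb2* and *Twist2* were each apart on their own, so the ratios partly restate their fall.

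On the log2 scale the ratio moved by 0.53 for *Snai1* to *Snai2*, by 0.71 for *Zeb1* to *Zeb2* and by 0.63 for *Twist1* to *Twist2*. The two-sided exact permutation test gave p = 0.1 for each, the smallest possible (0.133 adjusted over the 4 pairs compared), so the design cannot pass 0.05 here. The RUNX pair moved together: *Runx1* stood over *Runx2* by 2.56, 2.67 and 3.11 times with vehicle and by 2.83, 2.62 and 3.32 times with TGFβ. These ratios overlapped, and their log2 difference of 0.07 (exact permutation p = 0.6) ran from -0.02 to 0.16 with 1 library left out.

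**Figure D3:**
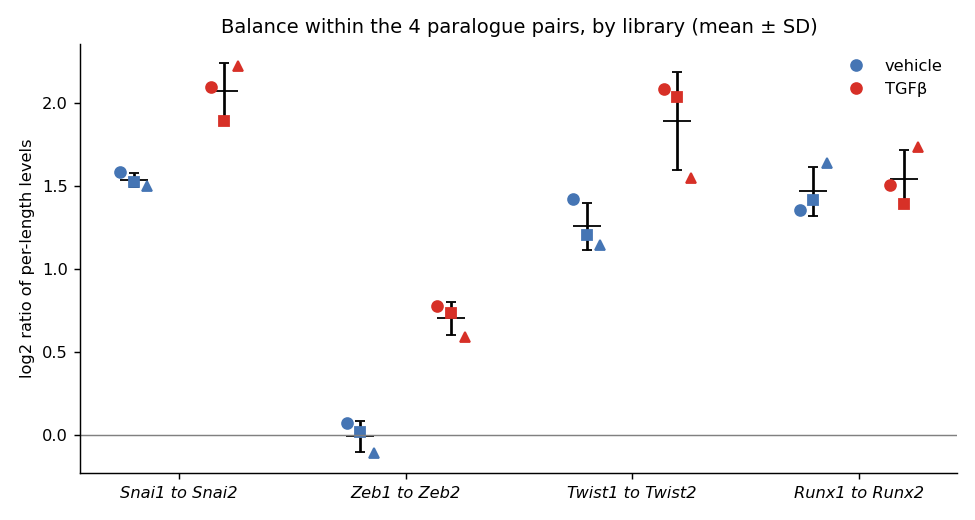
Log2 ratio of the per-length levels of the first to the second paralogue (y axis) in each vehicle (blue) and TGFβ (red) library, with circles, squares and triangles for libraries 1, 2 and 3 and black bars for the mean ± SD. The ratios of the SNAIL, ZEB and TWIST pairs are higher in all 3 TGFβ libraries, by 0.53, 0.71 and 0.63 in the mean, and those of the RUNX pair overlap.

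Per kilobase of exon, *Snai1* was the highest of the 10 factors in both groups. It reached 53.0 ± 1.41 RPKM with vehicle and 46.8 ± 3.83 RPKM with TGFβ (SD, n = 3 each; RPKM are CPM per kilobase of all annotated exons together). With vehicle, *Prrx1* followed at 24.8 ± 1.86 RPKM, *Sox9* at 23.1 ± 4.28 RPKM and *Snai2* at 18.3 ± 0.546 RPKM, and the libraries of *Sox9* overlapped with those of both neighbors. *Twist1* came next at 13.2 ± 1.49 RPKM, before *Zeb2* at 9.93 ± 0.854 RPKM and *Zeb1* at 9.85 ± 0.395 RPKM, which overlapped. *Twist2* at 5.50 ± 0.451 RPKM and *Runx1* at 5.26 ± 0.479 RPKM overlapped as well, and *Runx2* was last at 1.90 ± 0.0274 RPKM.

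With TGFβ, *Sox9* moved up to second place at 32.5 ± 3.20 RPKM, apart from *Prrx1* at 14.2 ± 0.639 RPKM. *Runx1* at 7.99 ± 0.610 RPKM passed *Zeb2* at 6.48 ± 0.213 RPKM, again with no overlap between the libraries. *Twist1* at 12.0 ± 0.992 RPKM, *Snai2* at 11.1 ± 0.457 RPKM and *Zeb1* at 10.5 ± 0.582 RPKM each overlapped with the next. *Twist2* at 3.30 ± 0.893 RPKM and *Runx2* at 2.75 ± 0.201 RPKM also overlapped. Summed over the 10 factors, the level was 162 to 166 RPKM with vehicle and 144 to 149.8 RPKM with TGFβ. *Snai1* made up 31.7% to 32.7% of it with vehicle and 30.0% to 34.0% with TGFβ, while the share of *Prrx1* went from between 13.8% and 16.5% to between 9.09% and 10.3%. The levels and shares depend on the length used. With the longest transcript in place of all exons, the vehicle level was 42.0 RPKM for *Prrx1*, 21.7 RPKM for *Zeb2*, 17.4 RPKM for *Zeb1* and 10.8 RPKM for *Runx1*, and the share of *Prrx1* went from between 18.8% and 21.6% to between 12.4% and 14.0%. The places of *Snai1*, *Prrx1*, *Sox9* and *Runx2* stayed, and those of the other 6 shifted in at least 1 group.

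**Figure D4:**
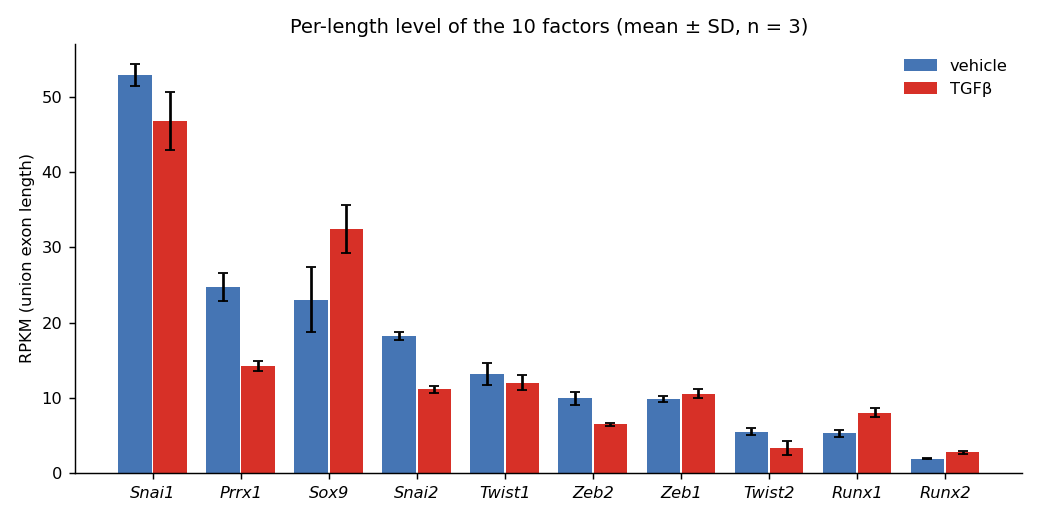
Mean level of each factor in RPKM over the union of its exons (y axis, from 0), ordered by the vehicle level, with vehicle in blue, TGFβ in red and bars for the SD of 3 libraries. *Snai1* leads in both groups at 53.0 and 46.8 RPKM, and *Sox9* rises above *Prrx1* with TGFβ.

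The known partners and close relatives of the factors did not move as a block. Of 13 such genes, 12 were listed and 11 tested, 4 were called higher, 3 lower and 4 not, with a median log2 fold change of 0.04 beside -0.00129 for all genes tested. *Sox8*, a SOX9 relative, rose from 12, 22 and 13 reads with vehicle to 81, 63 and 132 with TGFβ (log2FC 2.66, SE 0.36, edgeR adjusted p = 0.000887). *Cbfb*, the shared partner that stabilizes RUNX proteins on DNA, rose from 67.4 ± 3.82 to 83.2 ± 5.20 CPM (SD, n = 3 each), with a log2FC of 0.30 (edgeR adjusted p = 0.00533). *Ctbp1*, a corepressor recruited by ZEB proteins, and *Tcf12*, an E protein that dimerizes with TWIST, rose by 0.14 and 0.13. Their calls were nearer to the threshold (edgeR adjusted p = 0.024 and 0.0351).

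*Prrx2*, the paralogue of *Prrx1*, fell like it, from 212, 215 and 214 reads to 120, 118 and 163 (log2FC -0.56, SE 0.13, edgeR adjusted p = 0.0116). *Sox5*, which acts with SOX9 in cartilage, and the E protein gene *Tcf4* also fell, with log2 fold changes of -0.54 and -0.23. *Snai3* was not listed, and *Runx3* had 4 to 12 reads per library and was not tested.

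Among 12 other factors known to promote transition, 10 were tested, of which 4 were called higher and 1 lower, with a median log2 fold change of 0.38. *Foxc2*, a forkhead factor of mesenchyme, rose from 19.0 ± 2.29 to 39.8 ± 5.15 CPM (SD, n = 3 each; log2FC 1.06, edgeR adjusted p = 0.000354), while its paralogue *Foxc1* fell from 35.4 ± 3.34 to 26.3 ± 2.63 CPM (SD, n = 3 each; log2FC -0.42, edgeR adjusted p = 0.00771). *Klf8* rose from a low level of 18 to 20 reads to 41 to 46 (log2FC 1.32), and *Foxq1* and *Sox4* rose by 1.01 and 0.23. *Foxq1* was low as well, at 17, 14 and 18 reads with vehicle and 37, 17 and 37 with TGFβ. Its call was near the threshold (SE 0.33, edgeR adjusted p = 0.042).

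Most genes of the epithelial side were counted too rarely to be tested. Of 11 guardians of the epithelial state, 4 (*Grhl2*, *Ovol1*, *Ovol2* and *Elf5*) were not listed, and only 3 were tested. *Esrp2*, an epithelial splicing regulator, rose from 107, 68 and 100 reads to 296, 274 and 304 (log2FC 1.79, SE 0.15, edgeR adjusted p = 8.41e-05), and *Klf4* and *Gata3* were not called. Its paralogue *Esrp1* had 1 read in the 6 libraries together.

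Of 18 epithelial genes known as targets of SNAIL, ZEB and TWIST repression, all were listed, 8 were tested, 3 were called higher and none lower. *Cdh1*, which encodes E-cadherin and is the classical target, had 5, 3 and 5 reads with vehicle and 4, 9 and 12 with TGFβ, too few to be tested. The 3 that rose all encode junction proteins. The junction genes *Ocln* and *Cldn1* were also tested and were not called, with estimates below 0 (log2FC -1.10 and -0.38, edgeR adjusted p = 0.111 and 0.53). *Dsp*, which encodes desmoplakin, rose from 8.12 ± 1.82 to 38.7 ± 11.5 CPM (SD, n = 3 each; log2FC 2.25, edgeR adjusted p = 0.000264), *Cdh3*, which encodes P-cadherin, by 1.48 and *Pkp2*, a plakophilin, by 0.79. Genes that pass the filter through 1 group alone had to differ, so the median of 0.60 over the 8 tested genes is a description.

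Of 12 markers of the mesenchymal state, all tested, 5 were called higher and 2 lower, with a median log2 fold change of 0.17. *Itga5*, the fibronectin receptor subunit, rose from 181 ± 12.0 to 402 ± 56.9 CPM (SD, n = 3 each; log2FC 1.15), *Tnc*, tenascin C, by 0.92, *Cdh11* by 0.87, *Cdh2*, N-cadherin, by 0.28 and *Itgb1* by 0.21. The libraries of *Cdh2* overlapped between groups, and its call was near the threshold (edgeR adjusted p = 0.0397). *Vim*, the mesenchymal intermediate filament, and *Mmp2*, a gelatinase, fell, with log2 fold changes of -0.24 and -0.33. *Fn1*, fibronectin, measured 18680 ± 1060 CPM in vehicle and 19200 ± 2367 CPM in TGFβ libraries (SD, n = 3 each; edgeR adjusted p = 0.786).

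The targets of *Runx2* and of *Sox9* in the skeleton differed in what was called. Of 12 osteoblast genes known as RUNX2 targets, 11 were listed and 5 tested, none were called higher and 2 were called lower, although *Runx2* itself rose. *Alpl*, tissue alkaline phosphatase, fell from 324, 290 and 512 reads to 122, 83 and 203 (log2FC -1.35, SE 0.33, edgeR adjusted p = 0.0132), and *Mmp13*, collagenase 3, fell by 0.81 on the log2 scale. *Sp7*, which encodes osterix, had 1 read with vehicle and 1 with TGFβ over 3 libraries each, and *Bglap* and *Ibsp* had 1 read each in all.

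Of 14 cartilage genes known as SOX9 targets, 13 were listed and 9 tested, of which 5 were called higher and none lower. *Acan*, which encodes aggrecan, rose from 305, 216 and 225 reads to 1268, 949 and 1256 (log2FC 2.35, SE 0.15, edgeR adjusted p = 2.68e-05). *Col2a1*, the collagen of cartilage, rose from 164, 154 and 67 reads to 659, 628 and 410 (log2FC 2.27, SE 0.30, edgeR adjusted p = 0.000885). In both groups library 3 had the fewest *Col2a1* reads, as it had the lowest *Sox9* level. *Acan* did not share this order: its fewest reads in each group, 216 and 949, were not in library 3. *Col11a1*, *Matn3* and *Col9a2* rose by 1.49, 1.39 and 0.53, and each had its fewest reads in library 3 in both groups. The call of *Col9a2* was near the threshold (edgeR adjusted p = 0.03955). *Matn1*, *Hapln1*, *Cnmd* and *Scrg1* had too few reads for the test. *Comp* was not called (log2FC 0.20, edgeR adjusted p = 0.123) and had its most reads in library 3 in both groups. How many of all genes share the library order of *Sox9* was not computed. Libraries of the same number deviated together across genes, so a shared order is a description. Whether the factors act on any of these genes was not tested.

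**Figure D5:**
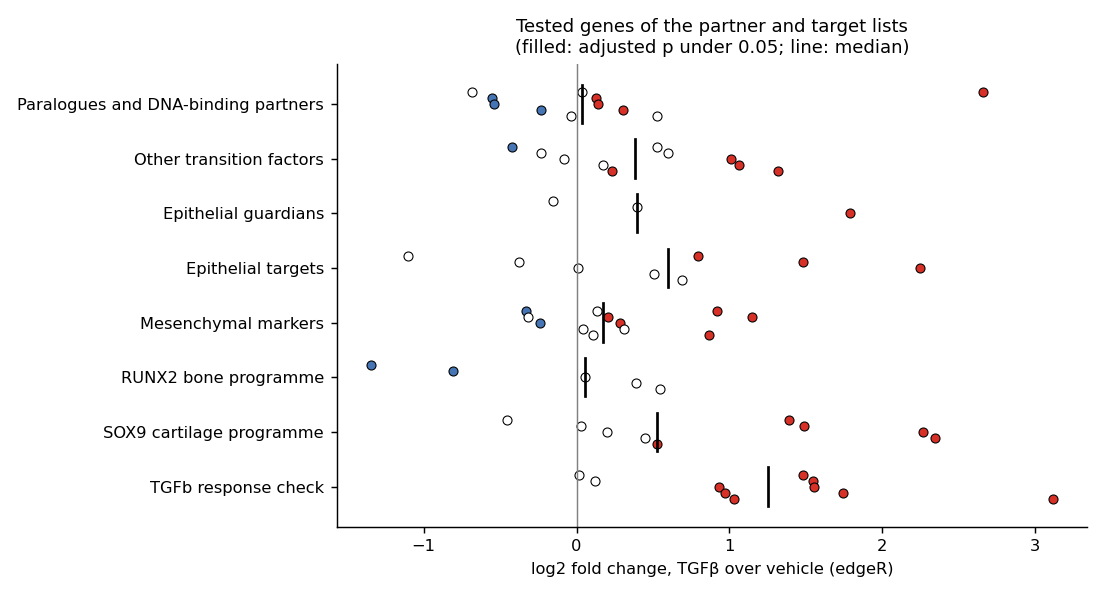
Log2 fold change with TGFβ over vehicle (x axis) of the tested genes of each partner or target list (1 point a gene, filled where the adjusted p was under 0.05, red higher and blue lower), with a black line at the list's median. The tested cartilage genes reach 2.35 with none called lower, while both called bone genes lie below 0 at -0.81 and -1.35.

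Over the 6 libraries, the gene whose log2 CPM followed each factor most closely was found among the 10373 genes whose mean reached 5 CPM. For *Zeb2* it was *Sh3pxd2b*, a scaffold of podosomes (Pearson r = 0.9995), for *Snai2* it was *Scn7a* (r = 0.999), for *Prrx1* it was *Dtx4* (r = 0.9986), and for *Runx1*, *Runx2* and *Sox9* they were *Cdr2* (r = 0.999), *Lrrk1* (r = 0.999) and *Blcap* (r = 0.9984). For *Twist2*, *Snai1*, *Zeb1* and *Twist1* they were *Slc30a1* (r = 0.9983), *Mpdu1* (r = 0.9903), *Rc3h1* (r = 0.9888) and *Mpp2* (r = 0.9835). Each value is the best of 10373 genes over only 6 libraries, so the search itself gives an r near 1, also for the uncalled *Zeb1* and *Twist1*. These values describe the order and spacing of 6 libraries in 2 groups, with library scaling in common, and are no evidence of a link. They take no account of size: *Scn7a* and *Dtx4* had log2 fold changes of -1.89 and -1.90, more than the -0.71 of *Snai2* and the -0.80 of *Prrx1*.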

How the data were processed

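RNA was collected from 3 vehicle and 3 TGFβ cultures. From stranded poly(A) libraries the authors obtained 75-base single-end reads, which they aligned to mm10; differential expression was theirs from DESeq2. They deposited whole-number counts of reads per gene without normalization. The aligner, the counting tool and its strand setting are not given in the sources used here. The table also holds the authors' normalized mean, fold changes and p-values, which were not used. Column headers name the group but no replicate.

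From the deposited counts, TMM-scaled CPM were computed with edgeR 4.0.16 (R 4.3.3), followed by its filterByExpr filter and quasi-likelihood test without covariates, on all genes, with Benjamini-Hochberg adjustment and a threshold of 0.05. The standard error is the log2 fold change over the square root of F. The steps were tested on simulated data. Symbols were matched by identifier to GENCODE M21 (25086 of 25140 genes), and promoter windows came from RefSeq, which gave 11 windows for 7 factors. The alternatives tried were size factors of DESeq2 or upper quartile scaling within edgeR, DESeq2 1.42.0, limma-voom (limma 3.58.1), no filter, at least 1 CPM required in 3 libraries, omission of each library in turn, an adjusted p of 0.01 and, added later, a block by column order.

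The members and lists were chosen with earlier results of these data known. By rule, all members were named, with the 2 largest called changes each way of each list (or its most counted gene), the most counted gene of each cell type list, the gene most like each member, and genes overlapping a member with over 1% of its counts. Further genes of the lists were named after their values were seen, where few were called or a defining gene was not tested. Counting error was 1.56% to 6.52% for the least counted library of each factor. Whether the intervals cover differences between animals is not known, as the origin of each replicate was not given.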

Additional observations from a re-analysis of the deposited data

How the results depend on the processing

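The count columns carry no replicate numbers, and the planned test had no block. A block by column order, chosen after seeing the data, gave 8 members and 7497 genes called, of which 5826 were among the 5828 called without it; every library correlated best with that of its own number, a hint from the data and not from the design. *Snai1* was then called (adjusted p = 0.0122), and *Zeb1* and *Twist1* were not (0.0754 and 0.0654). The number of members called was 7 in the fit reported and 7 or 8 under the 6 alternatives of scaling, tool and filter, 5 at an adjusted p of 0.01, and 6 to 8 with each library left out. *Snai1* was the eighth: its adjusted p was 0.0455 with DESeq2's size factors in edgeR, 0.0387 with upper quartile scaling, 0.0488 with limma-voom, 0.0483 with the floor of 1 CPM and 0.00743 without TGFβ library 3, and its log2 fold change stayed between -0.25 and -0.12. *Sox9* was lost without TGFβ library 1 or 2. *Snai2*, *Zeb2*, *Twist2*, *Prrx1*, *Runx1* and *Runx2* were called in the same direction under all 12 alternatives of tool, scaling, filter and library, and *Zeb1* and *Twist1* under none. Over all genes 5828 were called, and 4489 to 5840 under these 12 alternatives, but 3595 at an adjusted p of 0.01. The paralogue differences kept their sign with each library left out for the SNAIL (0.46 to 0.62), ZEB (0.66 to 0.76) and TWIST (0.53 to 0.80) pairs and not for the RUNX pair (-0.02 to 0.16). Upper quartile scaling moved the median log2 fold change of all genes to -0.0225. The counts of list genes called higher also moved with scaling, tool and filter. They were 3 or 4 for partners and relatives, 3 to 6 for other transition factors, 5 to 7 for mesenchymal markers and 4 or 5 for cartilage genes. The counts called lower in these lists stayed. Depth limits *Twist2* most, whose least counted library has a counting error of 6.52%.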
